A study of Homo sapiens with 2 samples.

Results

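The genes of the DNA damage checkpoint, of the p53 response and of DNA end joining were examined in SBC5, an established small cell lung cancer line. They were chosen by name, as table rows whose gene name, split at commas, was 1 of 44 listed symbols, and for a symbol with several rows the row with the highest mean level was taken. Of the 44, 39 had a row and all 39 reached 1 FPKM in at least 1 library, among 12405 genes that did. RAD9A, RAD17, MDC1, GDF15 and PHLDA3 are not analysed here. Polyadenylated RNA was sequenced from 1 library of cisplatin-resistant SBC5 cells, derived by passing the parental line through cisplatin at 1, 2, 4 and 20 µg/ml in turn, and from 1 library of the parental SBC5 cells. Both were kept in serum-supplemented medium, and the labels do not say whether the resistant cells were 1 clone or whether cisplatin was present at harvest. Cisplatin is a platinum drug that crosslinks DNA. With 1 library per group there are no replicates, so no difference given here has a replicate check or a p-value, and each describes these libraries.

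Values are FPKM, fragment numbers scaled to locus length and library size, so levels of different genes can be set side by side. The columns summed to 1081047 in the resistant and 1019555 in the parental library, over 19217 loci. The number of reads behind each value is unknown, but 1 read was worth nearly the same in each library, with a resistant to parental ratio of 0.996. Of 10 neuroendocrine markers of small cell lung cancer 4 had a row, of which SYP had 8.62 FPKM in resistant and 8.56 FPKM in parental cells. NEUROD1, INSM1 and CHGA are among those not analysed here. None of 4 endothelial markers had a row, and HBB, at 0.472 FPKM in resistant and 2.69 FPKM in parental cells, was the only 1 of 5 haematopoietic markers with one. The 4 neuroendocrine markers summed to 31.6 FPKM in resistant and 119 FPKM in parental cells. SCG2 alone, a granin with 20.1 FPKM in resistant and 109 FPKM in parental cells, accounts for the lower sum. CHGB had 1.19 FPKM in resistant and 0.702 FPKM in parental cells, and NCAM1 had 1.64 FPKM in resistant and 0.821 FPKM in parental cells. Of 3 factors of other small cell lung cancer subtypes, 2 had a row. YAP1 had 84.7 FPKM in resistant and 76.6 FPKM in parental cells, and REST had 39.1 FPKM in resistant and 31.8 FPKM in parental cells. The epithelial markers KRT8 and CDH1, 2 of 5, summed to 7.17 FPKM in resistant and 2.63 FPKM in parental cells. CDH1 accounts for most of that difference, with 4.81 FPKM in resistant and 0.536 FPKM in parental cells. KRT8 had 2.36 FPKM in resistant and 2.09 FPKM in parental cells. The fibroblast markers COL1A1 and COL3A1, 2 of 6, summed to 11.4 FPKM in resistant and 3.52 FPKM in parental cells. COL3A1 had 7.51 FPKM in resistant and 1.18 FPKM in parental cells, and COL1A1 had 3.85 FPKM in resistant and 2.34 FPKM in parental cells. The part of such differences in cell state in the ratios below was not tested.

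The kinases ATM and ATR sense broken DNA and stalled replication forks. Through CHEK2 and CHEK1 they halt the cell cycle, and through p53 they switch on genes of arrest, repair and death, while MDM2 and MDM4 hold p53 down. Broken ends that are not copied from a sister chromatid are held by the Ku proteins and DNA-dependent protein kinase and sealed by ligase IV. Platinum crosslinks stall forks and so engage ATR.

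Short promoter stretches are shown for the genes whose window held the p53 decamer, the repeat unit of the element to which p53 binds. PLK2 is among them, and its log2 ratio between the libraries, -1.01, was the largest of the 39 in size. The log2 ratios of the other genes shown ran from -0.23 for TIPIN to -0.07 for FDXR. Whether the decamer bears on any of these levels was not tested. Windows ran from 250 bases before to 50 bases after each RefSeq transcription start (GRCh38.p14), 32 of the 39 genes had at least 1, and both strands were searched. The decamer is a palindrome, so the strand of a match carries no information. It was found in 5 of their 51 windows (9.8%), against 6.63% of 35116 windows of all genes. Capitals mark the decamer, each line runs 5′ to 3′ along the gene's strand, and 10 bases are given on each side where the start site allows. The matches begin 132 bases before a RefSeq start site in PLK2 (chr5:58460199-58460228, minus strand), 49 in SESN1 (chr6:109009018-109009047, minus), 34 in AEN (chr15:88621296-88621325, plus), 11 in FDXR (chr17:74872995-74873015, minus) and 84 in TIPIN (chr15:66386782-66386811, minus). A gene can have several starts, and the stretches of PLK2, SESN1, AEN and FDXR lie within the GENCODE span of their gene, that of TIPIN outside it.
PLK2: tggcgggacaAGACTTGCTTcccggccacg
SESN1: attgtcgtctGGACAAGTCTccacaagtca
AEN: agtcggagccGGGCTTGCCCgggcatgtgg
FDXR: gggcaggagcGGGCTTGCCCt
TIPIN: caaccaatggGGGCAAGCCTcggcggcaga

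A second search covered E2F letters, since E2F factors drive many S-phase checkpoint genes. TTTCCCGC, TTTGGCGC or TTTCGCGC was found on either strand in 7 of the 51 windows (13.7%), against 2.74% of all windows, in AEN, CLSPN, MDM2, TIPIN, TOPBP1 and XRCC6. Overlapping windows of MDM2 hold the same match, which is thus counted in each of them. The stretches that lie wholly before the RefSeq start of their window belong to AEN (chr15:88621131-88621158, plus), MDM2 (chr12:68807930-68807957, plus) and TIPIN (chr15:66356734-66356761, minus, in another window than the decamer). In TIPIN the capitals overlap a match on the other strand. TTTGAAA, the cell cycle homology letters, was found in 2 of the 51 windows (3.92%), against 6.13% of all windows, in MDM4 and ZMAT3. A match is a description of the letters and not a binding site.
AEN: ctctttaaaaTTTCCCGCcagtatggcc
MDM2: gagtgtcacaGCGCCAAAccttgctggc
TIPIN: cccgcacggaTTTGGCGCcaaacgctgc

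The comparison asked which of these genes differ in level between cisplatin-resistant and parental cells. Nearly all had a similar level in both libraries: 38 of 39 lay within 2-fold in log2(FPKM + 1), a measure that shrinks the differences of scarce genes. No gene was at least 2-fold higher in resistant cells, where 3.28% of all genes compared were. PLK2 alone was at least 2-fold lower, that is 2.56% of the 39, where 2.7% of all genes compared were lower and 5.98% passed the limit in either direction. The share of the 39 past the limit is thus near or under the background. Of the 39, 20 (51.3%) lay above a log2 ratio of 0 and 19 below, where 44.4% of all genes compared lay above 0. The median log2 ratio was 0.00 for the 39 and -0.04 for all genes. The median size of the log2 ratio, sign aside, was 0.18 for the 39 and 0.19 for all genes.

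**Figure D1:**
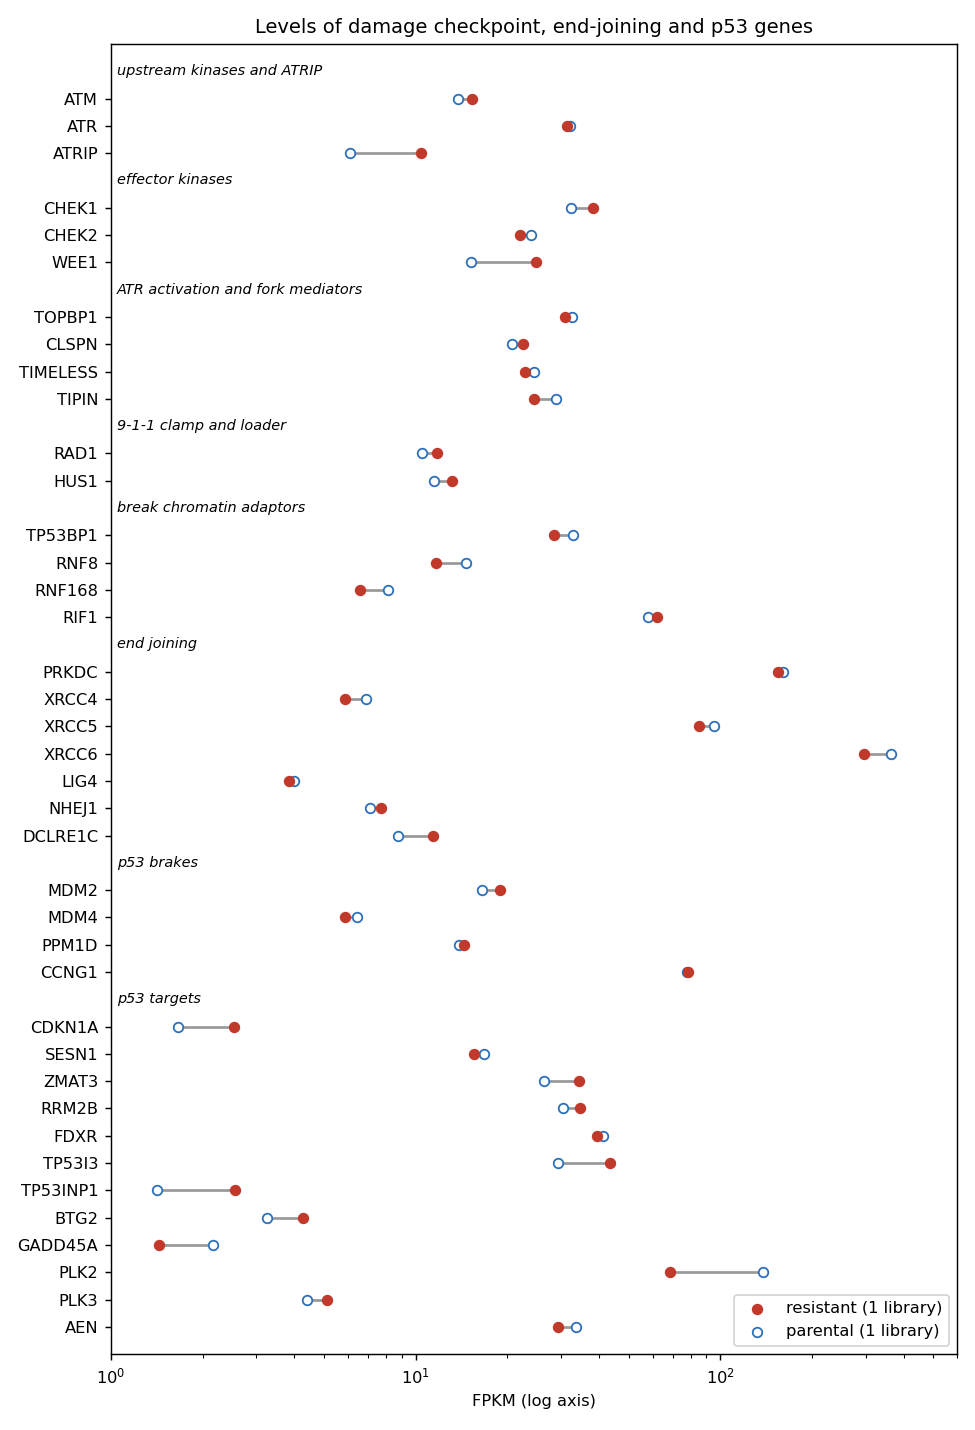
FPKM of each gene (log axis) in resistant cells (filled red) and parental cells (open blue), 1 library each, grouped by role. Levels run from about 1.4 FPKM for GADD45A and TP53INP1 to 296 and 363 FPKM for XRCC6, and the widest gap among abundant genes is that of PLK2.

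PLK2, a polo-like kinase of centriole duplication that p53 induces, had 68.3 FPKM in resistant and 138 FPKM in parental cells. It was the third most abundant of these genes in parental cells, and its log2 ratio was -1.01 (chromosome 5, 58453982 to 58460260, minus strand). Among the 500 genes nearest to it in mean level the central 95% of log2 ratios ran from -0.75 to 0.41, and 1.0% of these genes were lower still. PLK2 was the only 1 of the 39 outside such a range, where 5% of genes are outside by construction. The value sat at the 2-fold limit: it was -0.97 after division of the resistant column by the median ratio of all genes and also -0.97 with a pseudocount of 5, so it does not count as 2-fold under those settings. Its relative PLK3, a stress-responsive polo-like kinase, had 5.13 FPKM in resistant and 4.39 FPKM in parental cells (log2 ratio 0.19).

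**Figure D2:**
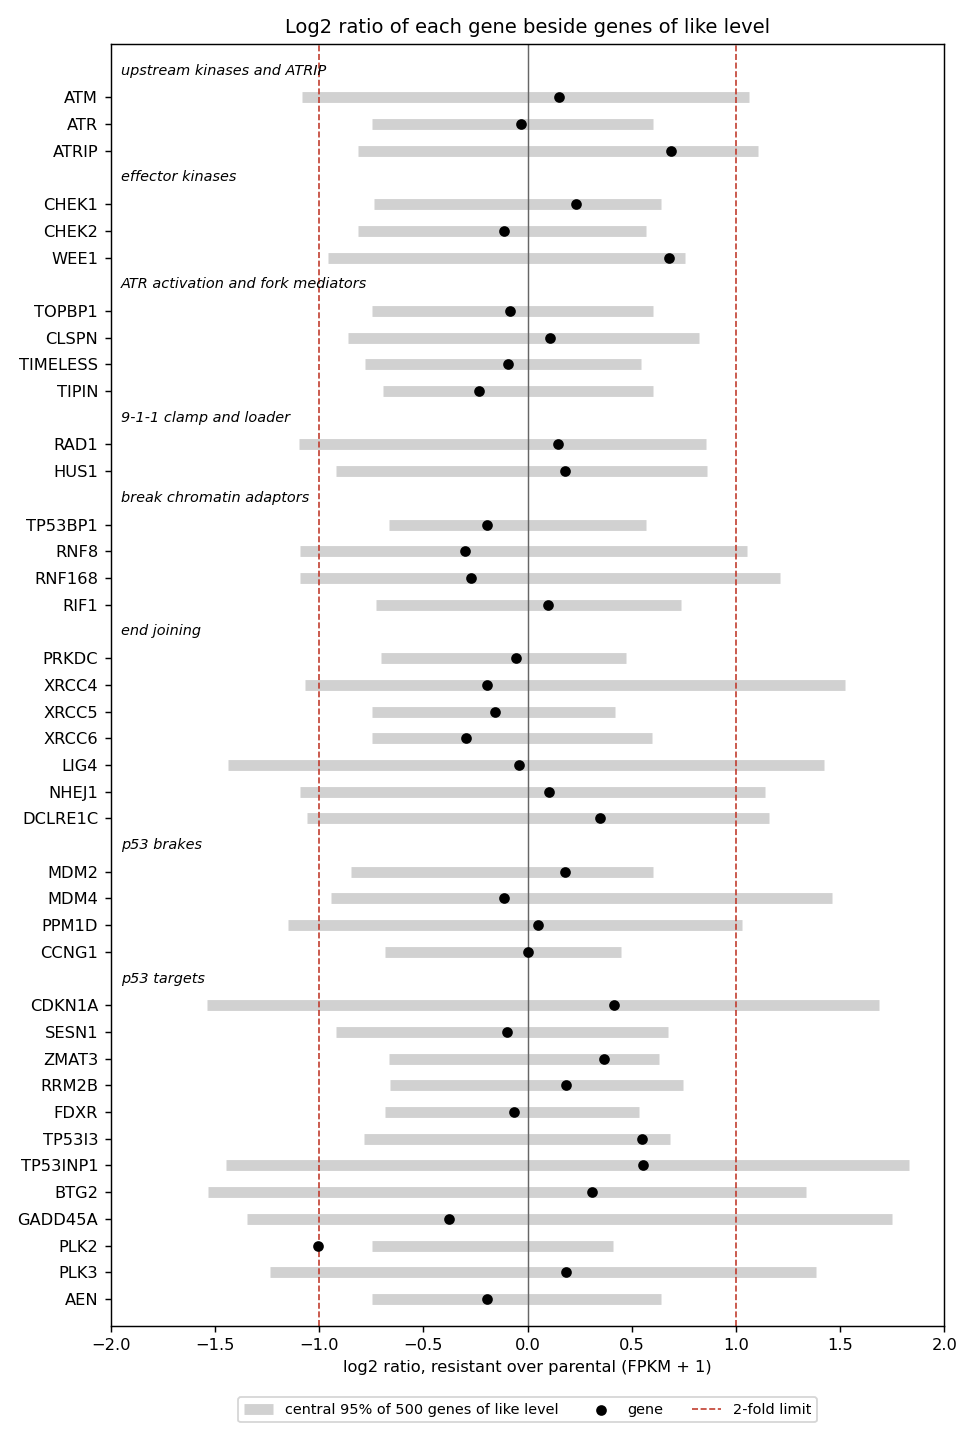
Log2 ratio of FPKM + 1, resistant over parental, for each gene (points), with grey bars for the central 95% of the 500 genes nearest in mean level and dashed lines at the 2-fold limit. PLK2 at -1.01 lies outside its bar and the other 38 genes lie inside theirs, with WEE1 at 0.68 and TP53I3 at 0.55 closest to the upper end.

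Among the upstream kinases the levels were close. ATM, the kinase of double-strand breaks, had 15.3 FPKM in resistant and 13.7 FPKM in parental cells (log2 ratio 0.15). ATR, the kinase of stalled forks, had 31.3 FPKM in resistant and 32.0 FPKM in parental cells (-0.03). ATR was thus above ATM in each library, by 2.04 times in resistant and 2.33 times in parental cells. ATRIP, which carries ATR to single-stranded DNA, had 10.4 FPKM in resistant and 6.12 FPKM in parental cells (0.69). That row lay in a part of the table whose loci have no strand, a status inferred from row order. The row of ATRIP on its annotated strand, joined with the exonuclease gene TREX1, had 8.33 FPKM in resistant and 6.23 FPKM in parental cells (0.37). ATR exceeded ATRIP by 3.0 times in resistant and 5.24 times in parental cells with the first row, and by 3.76 times in resistant and 5.14 times in parental cells with the joined row.

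Of the effector kinases, WEE1 had the larger ratio. WEE1, which holds CDK1 inactive and so delays mitosis, had 24.9 FPKM in resistant and 15.2 FPKM in parental cells (log2 ratio 0.68). This was within the like-level range of -0.96 to 0.75, above 96.6% of those genes. CHEK1, the effector of ATR, had 38.2 FPKM in resistant and 32.3 FPKM in parental cells (0.23). CHEK2, the effector of ATM, had 21.9 FPKM in resistant and 23.9 FPKM in parental cells (-0.12). CHEK2 has 4 numbered pseudogene copies in GENCODE release 29, so its value is uncertain where the counting could split reads among them. The level of WEE1 was 0.653 of that of CHEK1 in resistant and 0.469 in parental cells.

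The proteins that activate ATR and travel with the fork lay between log2 ratios of -0.23 and 0.11. TOPBP1, the activator of ATR, had 30.8 FPKM in resistant and 32.7 FPKM in parental cells (-0.08). CLSPN, the adaptor that presents CHEK1 to ATR, had 22.4 FPKM in resistant and 20.8 FPKM in parental cells (0.11). TIMELESS and TIPIN form 1 fork protection complex, and both were slightly lower in resistant cells. TIMELESS had 22.9 FPKM in resistant and 24.5 FPKM in parental cells (-0.09). TIPIN had 24.5 FPKM in resistant and 29.01 FPKM in parental cells (-0.23). Their levels were near 1 to 1, with TIPIN over TIMELESS at 1.07 in resistant and 1.18 in parental cells.

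The checkpoint clamp that recruits TOPBP1 was represented by RAD1 and HUS1, both with slightly more in resistant cells. RAD1 had 11.7 FPKM in resistant and 10.5 FPKM in parental cells (log2 ratio 0.14), and has 2 numbered pseudogene copies. HUS1 had 13.2 FPKM in resistant and 11.5 FPKM in parental cells (0.18). A second HUS1 row of no strand had 13.2 FPKM in resistant and 8.15 FPKM in parental cells (0.63).

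Of the 4 measured adaptors that mark chromatin around a break 1 had a log2 ratio above 0 and 3 below, and none passed 2-fold. Among all genes compared 44.4% lay above 0 and 5.98% were past 2-fold in either direction. The ubiquitin ligase RNF8, which acts first, had 11.7 FPKM in resistant and 14.6 FPKM in parental cells (log2 ratio -0.30). RNF168, the ligase that ubiquitinates H2A after it, had 6.57 FPKM in resistant and 8.14 FPKM in parental cells (-0.27). TP53BP1, which reads that mark and shields ends from resection, had 28.4 FPKM in resistant and 32.7 FPKM in parental cells (-0.20). RIF1, the partner that TP53BP1 brings in, had 61.9 FPKM in resistant and 57.8 FPKM in parental cells (0.10). RIF1 exceeded TP53BP1 by 2.18 times in resistant and 1.77 times in parental cells.

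Among the end-joining genes XRCC6, PRKDC and XRCC5 held the highest levels of the 39 in resistant cells. Of the 7 measured, 5 had a log2 ratio below 0, with a median of -0.05 and none past 2-fold. Of all genes compared 44.4% lay above 0, the median was -0.04 and 5.98% were past 2-fold in either direction. The split was also 5 of 7 with equal column sums and with division by the median ratio. XRCC6, the Ku70 subunit that rings broken ends, had 296 FPKM in resistant and 363 FPKM in parental cells (-0.29), and has 5 numbered pseudogene copies. XRCC5, the Ku80 subunit, had 85.3 FPKM in resistant and 95.2 FPKM in parental cells (-0.16). PRKDC, the catalytic subunit of DNA-dependent protein kinase, had 154 FPKM in resistant and 160 FPKM in parental cells (-0.05). These were the 3 most abundant of the 39 in resistant cells and, with PLK2, led in parental cells, and all 3 were slightly lower in resistant cells. XRCC6 exceeded XRCC5 by 3.47 times in resistant and 3.82 times in parental cells.

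The processing and ligation factors were far lower than Ku in both libraries. DCLRE1C, the Artemis nuclease that opens hairpins and trims ends, had 11.4 FPKM in resistant and 8.78 FPKM in parental cells (log2 ratio 0.35). LIG4, the ligase, had 3.85 FPKM in resistant and 3.99 FPKM in parental cells (-0.04). XRCC4, its scaffold, had 5.87 FPKM in resistant and 6.86 FPKM in parental cells (-0.19). NHEJ1, also called XLF, which bridges ends with XRCC4, had 7.68 FPKM in resistant and 7.07 FPKM in parental cells (0.10). LIG4 was the lowest of the 7 in each library, and DCLRE1C, with 1 numbered pseudogene copy, had the largest ratio of the 7 in size as deposited. XRCC6 had the larger one with equal column sums (-0.38, against 0.27 for DCLRE1C) and with a pseudocount of 5 (-0.29, against 0.25).

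**Figure D3:**
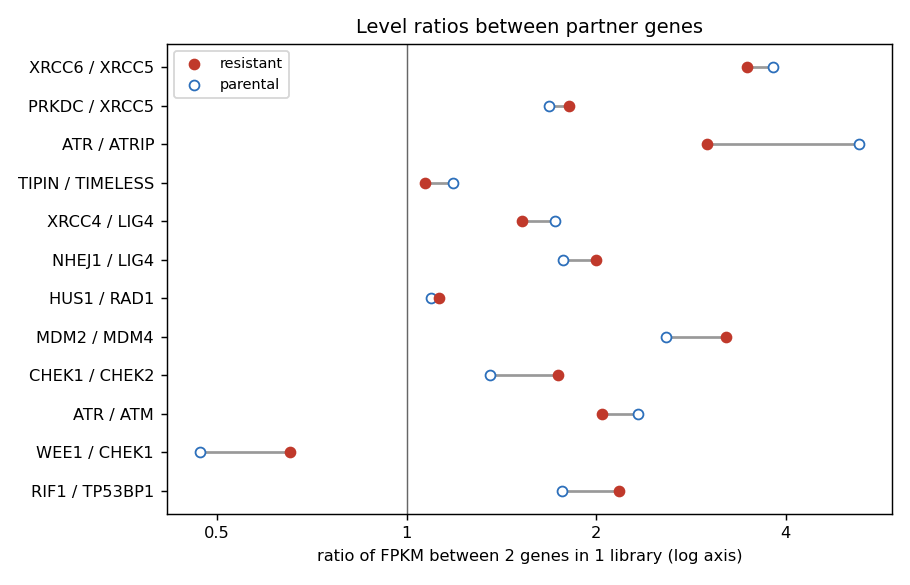
Ratio of FPKM between 2 partner genes within 1 library (log axis), in resistant (filled red) and parental cells (open blue). ATR over ATRIP, with the ATRIP row of no strand, shows the widest gap, at 3.0 in resistant and 5.24 in parental cells. With the joined ATRIP row, not drawn, it is 3.76 in resistant and 5.14 in parental cells. The gap of WEE1 over CHEK1, at 0.653 in resistant and 0.469 in parental cells, is then the wider one. TIPIN over TIMELESS and HUS1 over RAD1 lie close to 1 in both.

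The genes that restrain p53 had log2 ratios between -0.11 and 0.18, with 3 of 4 above 0 as deposited and 1 of 4 with equal column sums. As deposited, 44.4% of all genes compared lay above 0. MDM2, the ubiquitin ligase that degrades p53 and is itself induced by it, had 18.9 FPKM in resistant and 16.6 FPKM in parental cells (0.18). MDM4, which masks the activation domain of p53, had 5.87 FPKM in resistant and 6.42 FPKM in parental cells (-0.11). MDM2 over MDM4 was 3.22 in resistant and 2.58 in parental cells. PPM1D, the phosphatase that resets the checkpoint kinases and p53, had 14.4 FPKM in resistant and 13.8 FPKM in parental cells (0.05). CCNG1, a cyclin that p53 induces and that recruits a phosphatase to MDM2, had 78.1 FPKM in resistant and 78.0 FPKM in parental cells (0.00), and has 1 numbered pseudogene copy.

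The 12 other p53 targets with a row had a median log2 ratio of 0.18, with 7 above 0 and 5 below. Of all genes compared 44.4% lay above 0, with a median of -0.04. In a further list of 46 p53 targets, given below, 19 lay above 0 and 27 below, with a median of -0.04. CDKN1A, the CDK inhibitor p21 that enforces arrest, was among the lowest of all 39 genes, at 2.54 FPKM in resistant and 1.66 FPKM in parental cells (0.42). These levels stood at percentile 10.1 in resistant and 6.21 in parental cells among the genes compared. The log2 ratio moved with the pseudocount, as did those of the other low genes below, and ran from 0.18 to 0.59 for CDKN1A over the settings tried. GADD45A, a stress sensor that slows entry into mitosis, had 1.44 FPKM in resistant and 2.17 FPKM in parental cells (-0.38). The pair of values equals 2 to 3 in whole reads or a multiple of them, and the number of reads itself is unknown. BTG2, an antiproliferative cofactor of mRNA decay, had 4.27 FPKM in resistant and 3.26 FPKM in parental cells (0.31). CDKN1A, GADD45A and BTG2 were thus all under 5 FPKM in both libraries.

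Of the targets tied to death and oxidative stress, the largest ratio among abundant genes was that of TP53I3, a quinone oxidoreductase also called PIG3. It had 43.3 FPKM in resistant and 29.3 FPKM in parental cells (log2 ratio 0.55), above 96.4% of the genes of like level and inside their range of -0.79 to 0.68. TP53INP1, a promoter of p53 activity and autophagy, had 2.55 FPKM in resistant and 1.42 FPKM in parental cells (0.55). Its log2 ratio was 0.23 with a pseudocount of 5 and 0.80 with a pseudocount of 0.1. AEN, an exonuclease of apoptosis, had 29.3 FPKM in resistant and 33.6 FPKM in parental cells (-0.19). FDXR, the mitochondrial ferredoxin reductase, had 39.5 FPKM in resistant and 41.3 FPKM in parental cells (-0.07). FDXR had a log2 ratio of 0.52 in its second, lower row and of 0.04 with its rows summed.

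The remaining targets serve nucleotide supply, antioxidant defence and RNA stability. RRM2B, the ribonucleotide reductase subunit that p53 induces, had 34.7 FPKM in resistant and 30.5 FPKM in parental cells (log2 ratio 0.18). SESN1, a sestrin that dampens mTORC1, had 15.6 FPKM in resistant and 16.8 FPKM in parental cells (-0.10). ZMAT3, an RNA-binding protein of the p53 response, had 34.4 FPKM in resistant and 26.4 FPKM in parental cells (0.37). ZMAT3 was above 93.8% of the genes of like level and within their range of -0.66 to 0.63.

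**Figure D4:**
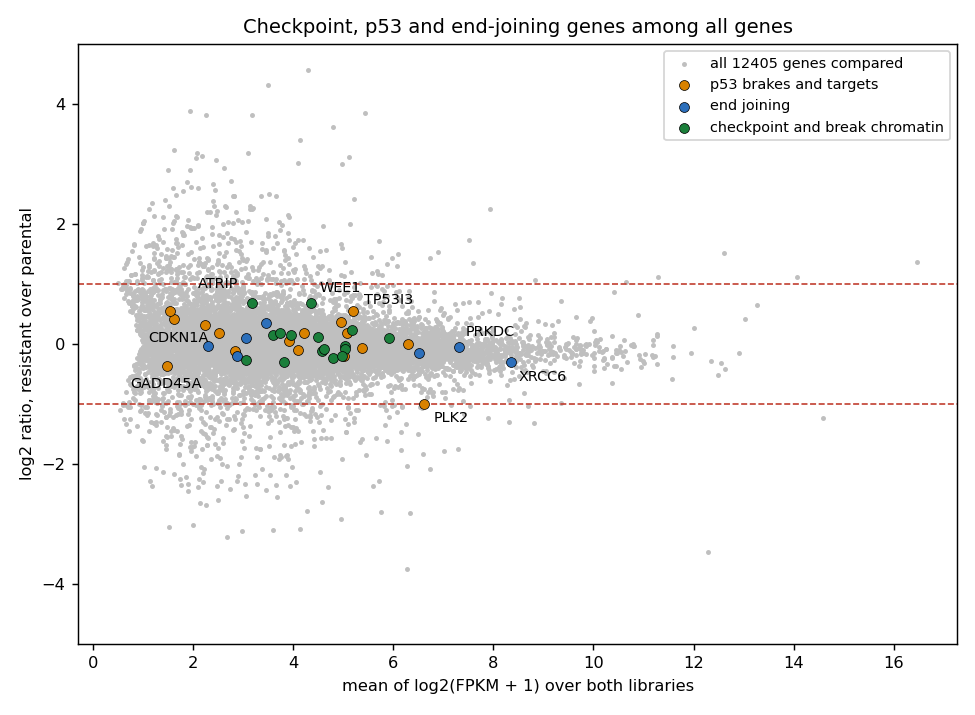
Log2 ratio, resistant over parental, against the mean of log2(FPKM + 1) over both libraries, for all 12405 genes compared (grey) and for the checkpoint and break chromatin (green), end-joining (blue) and p53 (orange) genes. PLK2 alone touches the lower dashed 2-fold line, at -1.01, and none reaches the upper one.

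Ordered by level, the first 5 genes in parental cells were XRCC6, PRKDC, PLK2, XRCC5 and CCNG1. In resistant cells the same 5 led, and PLK2 came after the other 4, at percentile 87.0 of all genes compared in resistant and 94.1 in parental cells. In all, 24 of the 39 in resistant and 23 in parental cells lay above the median level of the genes compared. The lowest were GADD45A, CDKN1A, TP53INP1 and LIG4 in resistant cells and TP53INP1, CDKN1A, GADD45A and BTG2 in parental cells. Among these low genes the order cannot be set firmly, since the number of reads is unknown.

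Other genes of the same pathways, from lists of 138 symbols, had 118 with at least 1 FPKM in a library. In resistant cells 5 of the 118 passed the 2-fold limit upward and 4 downward, and their median log2 ratio was -0.08. Of all genes compared 3.28% passed it upward and 2.7% downward. The joined locus of CDKN2A, which encodes the MDM2 inhibitor p14ARF and the CDK inhibitor p16, and CDKN2B had 282 FPKM in resistant and 390 FPKM in parental cells (-0.47). In the list of 14 genes that regulate the p53 response 0 passed 2-fold, and the median was -0.03. EP300, an acetyltransferase that coactivates p53, had 56.6 FPKM in resistant and 51.5 FPKM in parental cells (0.13), and RFWD2, a ubiquitin ligase of p53 also called COP1, had 38.2 FPKM in resistant and 43.9 FPKM in parental cells (-0.20).

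The break sensor MRE11A passed the 2-fold limit in 1 row only. It had 85.4 FPKM in resistant and 15.1 FPKM in parental cells (log2 ratio 2.42) in a row of no strand. Its strand-assigned row had 20.8 FPKM in both libraries, and 4 further rows of no strand had lower levels. The most abundant of those 4 had 7.49 FPKM in resistant and 3.76 FPKM in parental cells (0.84), and the rest had log2 ratios from 0.14 to 0.33. The partners of MRE11A had little difference. RAD50 had 40.5 FPKM in resistant and 39.7 FPKM in parental cells (0.03), and NBN had 26.3 FPKM in resistant and 23.8 FPKM in parental cells (0.14). H2AFX, the histone that ATM phosphorylates around breaks, had 42.6 FPKM in resistant and 53.05 FPKM in parental cells (-0.31).

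Of 6 measured genes of the BRCA1-A complex, which brings BRCA1 to ubiquitin near breaks, 0 passed 2-fold, and of 9 TP53BP1 effectors 0 did. The share past 2-fold in either direction was 5.98% over all genes compared. Log2 ratios ran from -0.44 to 0.83 in the complex and from -0.77 to 0.46 among the effectors. The members given here are the 3 most abundant of each. BRE, a scaffold of the BRCA1-A complex, had 141 FPKM in resistant and 137 FPKM in parental cells (log2 ratio 0.04). BABAM1, which holds that complex together, had 40.3 FPKM in resistant and 44.8 FPKM in parental cells (-0.15). UIMC1, the ubiquitin reader RAP80, had 32.9 FPKM in resistant and 33.8 FPKM in parental cells (-0.04). The effectors follow. DYNLL1, a dynein light chain that TP53BP1 binds, had 477 FPKM in resistant and 492 FPKM in parental cells (-0.05). MAD2L2, the shieldin subunit REV7, had 111 FPKM in resistant and 106 FPKM in parental cells (0.06), and PAXIP1, the adaptor PTIP, had 37.3 FPKM in resistant and 38.4 FPKM in parental cells (-0.04).

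Among 10 further end-joining genes 9 had a log2 ratio below 0 and 0 passed 2-fold, with a median of -0.12. With division by the median ratio 8 of 10 lay below 0, with a median of -0.08. Of all genes compared 44.4% lay above 0 and 5.98% were past 2-fold in either direction. C9orf142, the factor PAXX, had 42.8 FPKM in resistant and 45.8 FPKM in parental cells (-0.10). TDP2, which removes topoisomerase from DNA ends, had 20.1 FPKM in resistant and 21.3 FPKM in parental cells (-0.08). The 6 genes of polymerase theta end joining had a median of -0.14. PARP1, the break-sensing ADP-ribose polymerase, had the most negative ratio of them, at 109 FPKM in resistant and 156 FPKM in parental cells (-0.52). XRCC1, a scaffold of single-strand break repair, had 29.99 FPKM in resistant and 29.91 FPKM in parental cells (0.00). FEN1, the flap nuclease, had 49.7 FPKM in resistant and 56.0 FPKM in parental cells (-0.17).

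Of 23 further checkpoint genes 19 had a log2 ratio below 0, 0 passed 2-fold and the median was -0.13. The number below 0 was 21 with equal column sums and 17 with division by the median ratio. Of all genes compared 44.4% lay above 0 and 5.98% were past 2-fold in either direction. RFC3, a clamp loader subunit, had 185 FPKM in resistant and 195 FPKM in parental cells (-0.07). RPA1, the large subunit of the single-strand binding protein, had 110.5 FPKM in resistant and 119 FPKM in parental cells (-0.10). RPA2, its partner and a substrate of ATR, had 79.0 FPKM in resistant and 94.2 FPKM in parental cells (-0.25).

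The 46 further p53 targets had a median log2 ratio of -0.04, with 4 past 2-fold upward in resistant cells and 4 downward. Of all genes compared 3.28% were past 2-fold upward and 2.7% downward. SFN, the protein 14-3-3 sigma of the G2 arrest, had 45.3 FPKM in resistant and 19.8 FPKM in parental cells (1.15). SYTL1, a protein of vesicle transport, had 15.5 FPKM in resistant and 6.73 FPKM in parental cells (1.09). THBS1, a matrix protein that inhibits blood vessel growth, had 3.54 FPKM in resistant and 0.676 FPKM in parental cells (1.44). TGFA, a ligand of the EGF receptor, completed these 4, with 2.64 FPKM in resistant and 0.739 FPKM in parental cells (1.06).

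On the lower side stood EDA2R, a receptor of the TNF receptor family, with 1.22 FPKM in resistant and 5.88 FPKM in parental cells (log2 ratio -1.63). PRDM1, a transcriptional repressor that acts in B cell differentiation, had 2.28 FPKM in resistant and 7.79 FPKM in parental cells (-1.42). DDIT4, an inhibitor of mTORC1, had 1.91 FPKM in resistant and 6.20 FPKM in parental cells (-1.31). KITLG, the ligand of KIT, had 4.41 FPKM in resistant and 11.3 FPKM in parental cells (-1.18). With a pseudocount of 5, SFN was the only 1 of these 8 genes still past 2-fold, at 1.02.

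Of this list the 3 genes with the highest mean level follow. BAX, which opens the mitochondrial membrane in apoptosis, had 185 FPKM in resistant and 179 FPKM in parental cells (log2 ratio 0.05). RPS27L, a ribosomal protein homologue that p53 induces, had 91.7 FPKM in resistant and 106 FPKM in parental cells (-0.20). PTP4A1, a phosphatase, had 75.5 FPKM in resistant and 83.2 FPKM in parental cells (-0.14). ISG15, the ubiquitin-like interferon-induced protein, came next and differed more, with 89.6 FPKM in resistant and 53.4 FPKM in parental cells (0.74), and was picked after its values were seen.

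**Figure D5:**
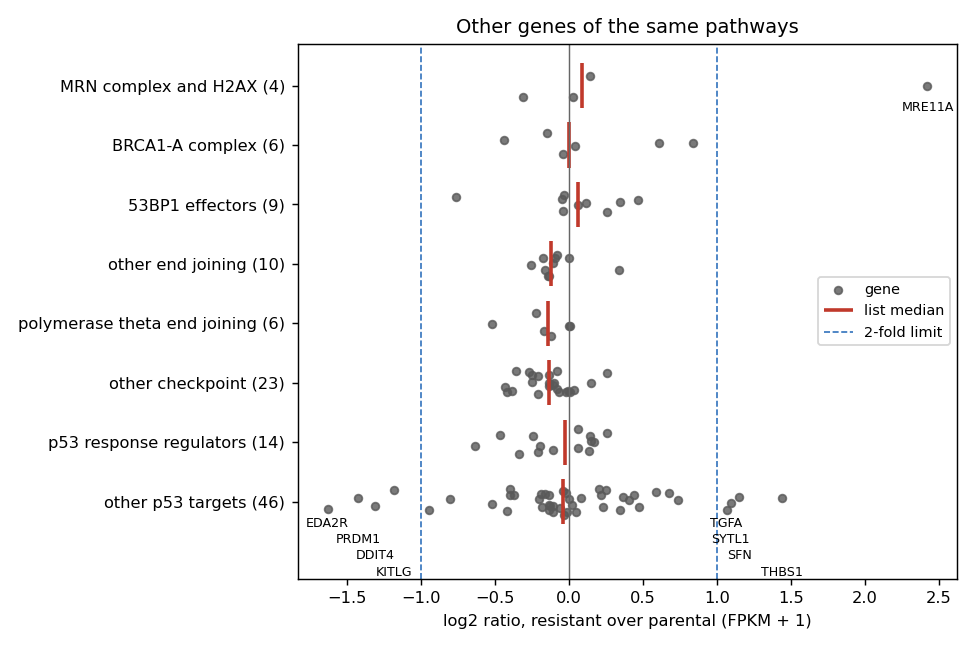
Log2 ratio, resistant over parental, of 118 other genes of the same pathways by list (number measured in brackets), with the list median in red and dashed lines at the 2-fold limit. The 46 further p53 targets spread from -1.63 for EDA2R to 1.44 for THBS1, and the MRE11A point at 2.42 is a row of no strand.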

How the data were processed

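Per the labels' protocols, total RNA of each culture was purified and 500 ng were made into strand-preserving polyadenylated RNA libraries. Per the file headers, the authors' deposited table holds FPKM, with a column for each culture. Alignment software TopHat2 (version not stated) and build hg38 are known per the submitters' processing notes. Which program and gene annotation gave the FPKM is not stated there. Columns were matched to cultures through the sample descriptions. Rows without a name (2919) or with a name turned into a date (23) were left out, and 12494 names remained. A gene reaching 1 FPKM in one library or both was compared as log2 of resistant FPKM + 1 over parental FPKM + 1. With a single library on each side nothing could be tested, and a limit of size was used, a log2 ratio of 1 or more in either direction. Members and lists were chosen with earlier results of these data known. All members with a row are named, and of other pathway genes those past 2-fold, the 3 most abundant of each list and MRE11A, RAD50 and NBN; a few genes that this rule selects are not reported here. The ratio of 68.5% of 7591 low loci (non-zero, each value below 5 FPKM) matched, to a relative tolerance of 6e-06, a ratio of whole numbers up to 50 multiplied by 0.996, against 0.329% with a wrong factor. FPKM keep no read number, so no counting interval is given. Rows were split by their order into plus, minus and no-strand parts. Of 11732 plus and minus rows with an annotated strand, 98.7% lay on it. The annotated strand also helped to place the limits of the parts, so this share is not an independent check of them. Positions are from GENCODE release 29 (GRCh38, the same build as hg38), and promoters from RefSeq (GRCh38.p14). The procedure was tested on simulated data, with changes well past the limit put into abundant genes of a single row. Changes near the limit, scarce genes and genes of several rows were not tested in this way. Python 3.11.15, pandas 2.3.3, NumPy 2.4.6 and matplotlib 3.10.9 were used.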

Additional observations from a re-analysis of the deposited data

How the results depend on the processing

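No paired analysis was possible because each group has 1 library and no replicate numbers. The settings tried were a pseudocount of 0.1 or 5, a minimum of 0 or 5 FPKM, equal column sums, division by the median ratio, summing the rows of a name, the second row of a name and a 4-fold limit; strand-assigned rows only was added after seeing the data. The median log2 ratio of the 39 genes stayed between -0.08 (equal sums) and 0.05 (second row), and none of the 39 was 2-fold higher under any setting run. The count of lower genes was 0 with a pseudocount of 5, with the median ratio and with the 4-fold limit, and 1 under the other settings; PLK2 ran from -1.09 to -0.97. With a filter of 5 FPKM 34 of the 39 were compared. With the second row FDXR had 0.52, HUS1 0.63, NHEJ1 0.41 and ATRIP 0.37. TP53INP1, with 1 row, had 0.23 with a pseudocount of 5 and 0.80 with a pseudocount of 0.1. Over all genes, 614 were higher with a pseudocount of 0.1, 142 higher and 136 lower with 5, and 76 higher and 60 lower with the 4-fold limit. Of the other pathway genes, 2 were higher and 0 lower with a pseudocount of 5, 1 higher and 0 lower with the 4-fold limit, and 3 higher with a filter of 5 FPKM. With equal sums the median of all genes was -0.12, and 18 of the 39 genes lay above 0, against 20. Read numbers are unknown, so values under about 5 FPKM are the least certain.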
